A study of Drosophila melanogaster with 9 samples.

Results

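The cytoplasmic actin and actomyosin genes described here were the 9 genes listed under the symbols Act5C, Act42A, chic, tsr, zip, sqh, cpa, cpb and Moe, of 14168 entries in the count table, and all 9 passed the filter on low counts. They were taken by symbol, from a list put together with earlier results of these data known. Messenger RNA came from whole wing discs of Drosophila melanogaster, which are epithelial primordia of the adult wing, dissected from larvae of the third instar, from stocks kept at 25 °C. Control discs were en-GAL4>+ and carried the engrailed driver alone, and the columns of their libraries are named en_w1118. NAT10-RNAi discs were en-GAL4 > UAS-NAT10-RNAi, in which the driver expresses RNA interference against NAT10, an enzyme that acetylates cytidines of RNA. Double-RNAi discs were en-GAL4 > UAS-NAT10-RNAi,Xrp1-RNAi, with RNA interference also against Xrp1, a bZIP transcription factor of the ribosomal stress response. Each genotype had 3 replicate libraries, each from 100 pooled discs, and the driver was present in all of them. Whether replicates came from separate crosses is not given in the labels, so the p-values measure the spread between these libraries, part of which may be technical. The age of the larvae within the instar and their sex are not given either. Engrailed marks posterior cells of the disc. Targeted and untargeted cells are therefore mixed in every library of whole discs, and fewer cells of a type cannot be told apart from less RNA per cell. The study asked how far the response to NAT10 depletion runs through Xrp1.

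Actin monomers assemble into filaments under the apical cortex of an epithelial cell, and nonmuscle myosin II pulls on these filaments to set cell shape and tension. Profilin hands monomers to growing ends, cofilin severs and disassembles old filaments, and capping protein blocks growing ends. In the wing disc, capping protein and the cortical linker Moesin are known for keeping cells within the epithelium, and actomyosin tension is known to feed into growth control.

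The libraries held between 14183856 and 19949448 estimated counts, and replicates correlated at 0.994 to 0.995 (Pearson's r of log CPM). The targeted gene, listed as l(1)G0020 and encoding the fly NAT10, had a mean of 101 normalised CPM (counts scaled to a common library size with TMM factors) in control discs (libraries at 100.6, 103 and 100.7), 62.2 in NAT10-RNAi discs (61.4, 63.2 and 62.1) and 74.7 in double-RNAi discs (75.1, 77.1 and 71.8). Its libraries were thus lower in both RNAi genotypes, with no overlap with control, and those of double-RNAi discs lay above those of NAT10-RNAi discs. Xrp1 stood at 521, 941 and 409, and the driver locus en at 101, 61.7 and 71.8. All 16 disc epithelium markers passed the filter, with a summed level of 8492 to 8553 CPM in the control libraries.

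Act5C was among the most abundant transcripts of the disc. By mean level it ranked 2 among all entries in CPM and 5 in FPKM, the deposited unit. FPKM is scaled to transcript length and to total counts, without TMM factors. These factors were 0.988 to 0.994 in control and 1 to 1.013 in double-RNAi libraries. In double-RNAi discs all 9 genes stood higher relative to control in FPKM than in CPM. The 9 genes together took 1.57% to 1.64% of all counts in the control libraries, 1.21% to 1.23% in NAT10-RNAi discs and 1.41% to 1.46% in double-RNAi discs. These ranges did not overlap, and Act5C gave 53.4% to 57.0% of the counts of the 9 genes in a library.

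On the per-length scale of FPKM, the control order ran from Act5C (4207 ± 101, SD, n = 3) through tsr (1088 ± 10.9), chic (1073 ± 17.7), Act42A (968 ± 39.5), Moe (336 ± 6.16), zip (278 ± 2.07), sqh (234 ± 6.46) and cpb (134.4 ± 1.303) to cpa (100.3 ± 1.32). Only the neighbours tsr and chic overlapped between libraries in this order. The order of zip and sqh was exchanged in NAT10-RNAi discs, at 196 ± 0.791 and 217 ± 2.12 FPKM. In double-RNAi discs chic (1134 ± 25.0) stood above tsr (1017 ± 7.87), and these no longer overlapped.

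**Figure D1:**
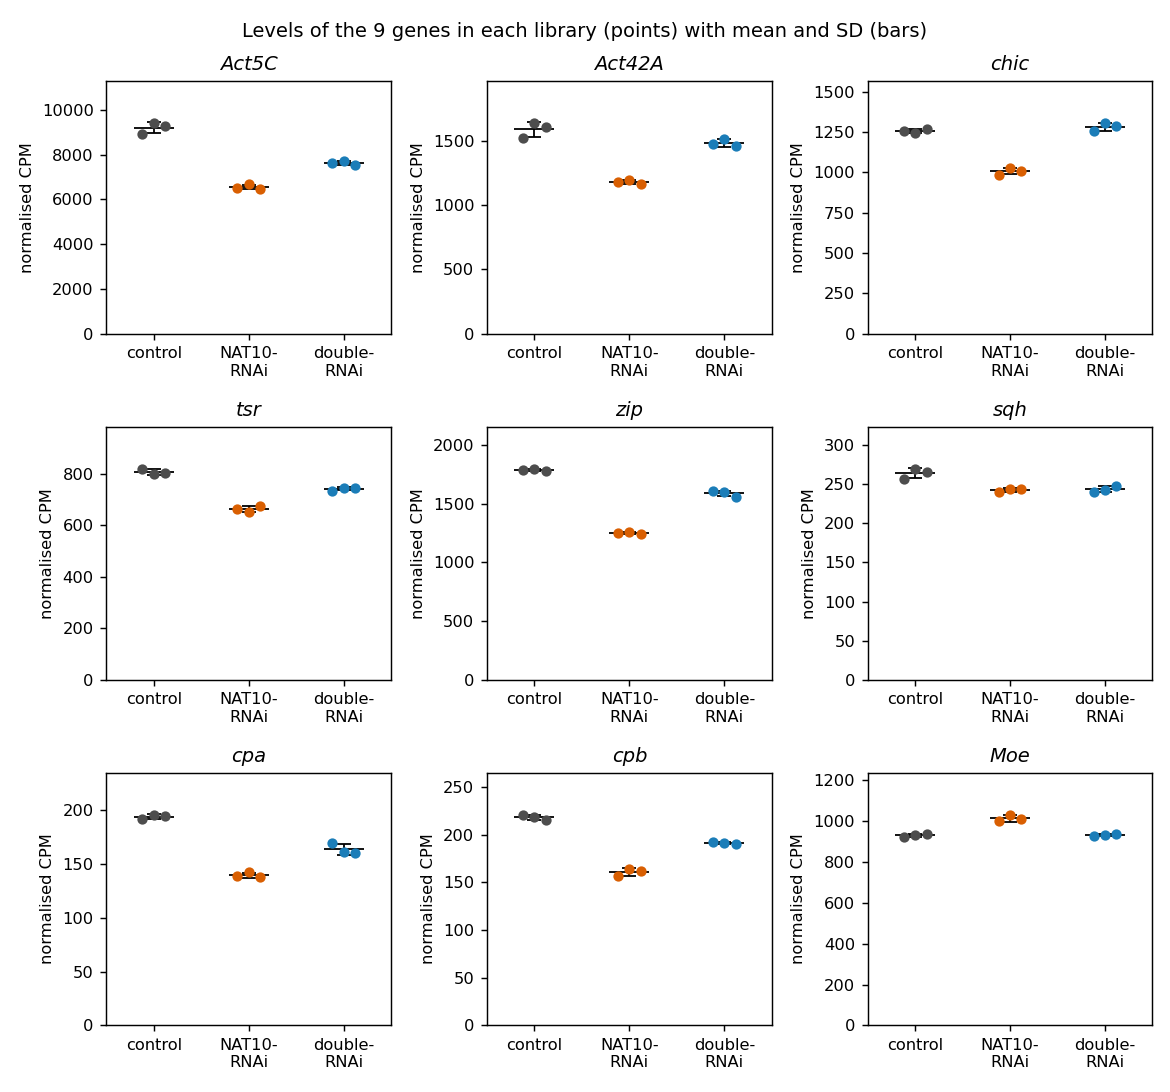
Normalised CPM (vertical axes from 0) of each of the 9 genes in the 3 genotypes. Points are single libraries, horizontal bars the mean and whiskers the SD over 3 libraries. The mean of every gene but Moe was lowest in NAT10-RNAi discs, whereas that of Moe was highest there. For sqh, libraries of both RNAi genotypes overlapped.

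NAT10-RNAi discs were first compared with the driver control. Transcripts of both cytoplasmic actins, of profilin, cofilin, the myosin II heavy and regulatory light chains and both capping protein subunits fell, and Moe rose. At an adjusted p under 0.05 (quasi-likelihood test of edgeR, Benjamini-Hochberg over 8487 genes) 8 of the 9 genes were lower and 1 was higher, where 29.6% of all genes tested were lower and 32.5% higher. The median log2 fold change was -0.43 for the 9 genes and 0.03 for all genes. Libraries of both genotypes did not overlap for any of the 9 genes, which held for 65.6% of all genes, so separation of the libraries alone is not particular to these transcripts.

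The 2 actins are encoded apart, Act5C on the X chromosome (5900861 to 5905399, plus strand, in the BDGP6.54 annotation) and Act42A on 2R (6013910 to 6015689, minus strand). Act5C stood at 8939, 9403 and 9272 CPM in the control libraries, at 6502, 6668 and 6474 in NAT10-RNAi discs and at 7642, 7720 and 7552 in double-RNAi discs. Control libraries were the highest, NAT10-RNAi libraries the lowest, and double-RNAi discs lay between them with no overlap. With NAT10 RNAi alone Act5C fell by 0.49 ± 0.024 on the log2 scale (SE; adjusted p = 1.18e-15, edgeR), to 71.1% of the control mean.

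Act42A stood at 1520, 1636 and 1605 CPM in control, 1182, 1194 and 1167 in NAT10-RNAi discs and 1477, 1513 and 1455 in double-RNAi discs. The double-RNAi libraries came close to the lowest control library but did not reach it in CPM. On the FPKM scale the double-RNAi libraries of Act42A (895 to 942) overlapped those of control (924 to 1000). Relative to control Act42A fell by 0.43 ± 0.027 with NAT10 RNAi alone (adjusted p = 3.5e-13, edgeR), to 74.4% of control. The 2 genes encode nearly identical proteins and may share reads, so their division is uncertain. Summed to 1 entry before the fit, they fell by 0.48 on the log2 scale. Act5C held 85.3% of the counts of both genes in control, so the sum mostly follows Act5C.

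Profilin and cofilin act on monomers and on old filaments. The profilin gene chic (2L, 5972115 to 5981018, minus strand) stood at 1257, 1245 and 1265 CPM in control, 985, 1024 and 1010 in NAT10-RNAi discs and 1257, 1304 and 1284 in double-RNAi discs. Its NAT10-RNAi libraries lay apart below the others, and control and double-RNAi libraries overlapped in CPM. On the FPKM scale the double-RNAi libraries of chic (1118 to 1163) lay above those of control (1058 to 1092). The length that FPKM used for chic was shorter in double-RNAi discs (mean 1140 bases) than in control (1161). The cofilin gene tsr (2R, 24044453 to 24046805, minus strand) stood at 818, 797 and 803 CPM in control, 661, 653 and 673 in NAT10-RNAi discs and 734, 745 and 745 in double-RNAi discs, in 3 separate ranges. With NAT10 RNAi alone chic fell by 0.32 ± 0.025 and tsr by 0.28 ± 0.025 on the log2 scale (adjusted p = 2.13e-11 and 1.62e-10, edgeR).

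Both genes of the capping protein heterodimer were lower than control in each RNAi genotype. The alpha subunit gene cpa (2R, 21057787 to 21059883, plus strand) stood at 192, 196 and 194 CPM in control, 139, 142 and 138 in NAT10-RNAi discs and 170, 161 and 160 in double-RNAi discs. The beta subunit gene cpb (2L, 1704902 to 1706962, plus strand) stood at 221, 218 and 216, at 156, 165 and 162, and at 193, 192 and 190. For both genes the 3 genotypes held separate ranges, with double-RNAi discs in the middle. Relative to control cpa fell by 0.47 ± 0.032 and cpb by 0.44 ± 0.030 on the log2 scale in NAT10-RNAi discs (adjusted p = 1.3e-12 and 1.1e-12, edgeR). Of the exon bases of cpa, 5.42% lie opposite exons of CG15653, which had 3.37 to 4.31 CPM in the 3 genotypes.

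The chains of nonmuscle myosin II had unequal fold changes. The heavy chain gene zip (2R, 24990570 to 25011965, minus strand) stood at 1790, 1797 and 1775 CPM in control, 1249, 1258 and 1242 in NAT10-RNAi discs and 1605, 1599 and 1561 in double-RNAi discs. Its fold change in NAT10-RNAi discs was the lowest of the 9 genes (fell by 0.52 ± 0.024 on the log2 scale, adjusted p = 2.72e-16, edgeR), to 69.9% of control. The regulatory light chain gene sqh (X, 6223061 to 6225140, minus strand) stood at 257, 270 and 266 CPM in control, 240, 244 and 244 in NAT10-RNAi discs and 241, 243 and 248 in double-RNAi discs. Libraries of both RNAi genotypes lay below all control libraries and overlapped each other. With NAT10 RNAi alone sqh fell by 0.12 ± 0.027 (adjusted p = 0.000403, edgeR), to 91.9% of control.

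Moe (X, 8873012 to 8898332, minus strand), the gene of the only fly member of the ezrin, radixin and moesin family, which ties filaments to the plasma membrane, went the other way. It stood at 921, 934 and 936 CPM in control, 1001, 1031 and 1007 in NAT10-RNAi discs and 926, 932 and 935 in double-RNAi discs. Its NAT10-RNAi libraries lay above all others, and control and double-RNAi libraries overlapped in CPM. On the FPKM scale the double-RNAi libraries of Moe (345 to 348) lay above those of control (329 to 340). The length that FPKM used for Moe was shorter in double-RNAi discs (mean 2710 bases) than in control (2746). The log2 fold change in NAT10-RNAi discs was 0.12 ± 0.024 (adjusted p = 8.92e-05, edgeR).

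**Figure D2:**
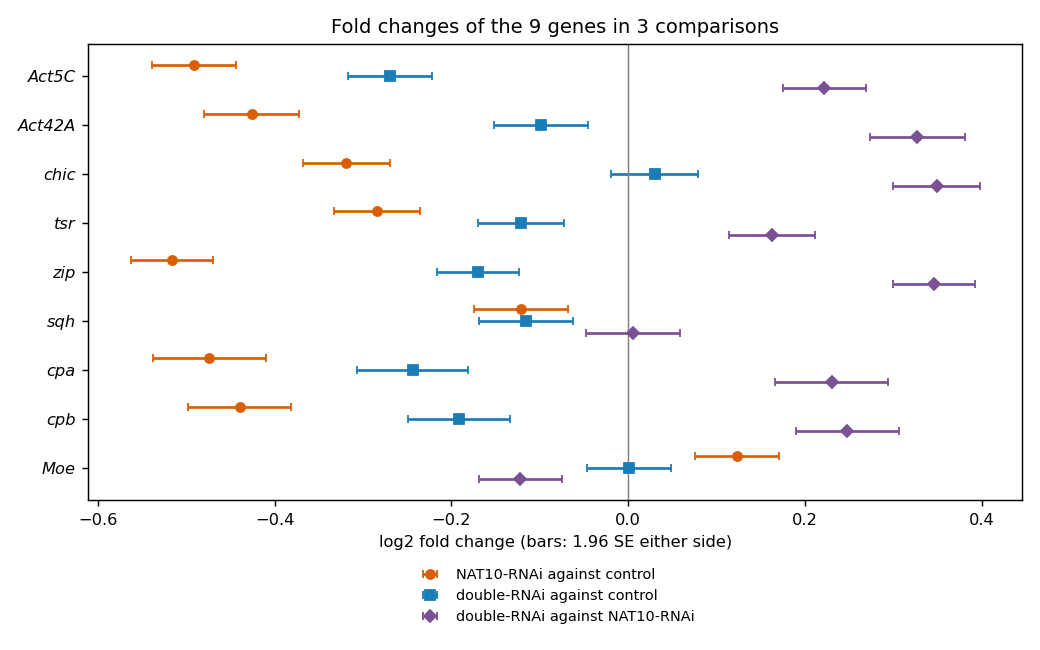
Log2 fold change (horizontal axis) of each gene in the 3 comparisons, with bars of 1.96 SE either side. All genes but Moe lay left of 0 in NAT10-RNAi discs against control (circles), and in the comparison of both RNAi genotypes (diamonds) all but Moe and sqh lay to the right of 0 by more than 1.96 SE.

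Double-RNAi discs were compared with control to see what remained when Xrp1 was depleted as well. The series holds no discs with Xrp1 RNAi alone, so an effect of that RNAi by itself cannot be told apart. Of the 9 genes 7 were lower, 0 higher and 2, chic and Moe, did not pass (0 were higher at an unadjusted p under 0.05 and 0 by DESeq2), where 15.5% of all genes tested were lower and 15.7% higher by edgeR. The median log2 fold change was -0.12 for the 9 genes and 0.00 for all genes. For 7 genes the libraries of both genotypes did not overlap in CPM, against 42.4% of all genes. Under scaling by total counts without TMM factors, the share of higher genes among all calls of this comparison went from 50.3% to 60.7%, while the counts of members stayed the same.

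Act5C and the capping protein genes were the farthest below control. Act5C fell by 0.27 ± 0.024 on the log2 scale, cpa by 0.24 ± 0.032, cpb by 0.19 ± 0.029 and zip by 0.17 ± 0.024 (adjusted p = 1.55e-09, 1.06e-06, 1.06e-05 and 2.59e-06, edgeR). These genes stood at 83.0%, 84.4%, 87.6% and 88.9% of the control mean. Smaller differences passed for tsr (fell by 0.12 ± 0.025, adjusted p = 0.000377), sqh (fell by 0.12 ± 0.027, adjusted p = 0.00166) and Act42A (fell by 0.10 ± 0.027, adjusted p = 0.00652). The call of Act42A was lost without control replicate 2 (-0.08, adjusted p = 0.0515, edgeR), which left 6 genes lower. It was kept in 15 of 16 alternatives. In some of these it passed narrowly by edgeR, as with total counts (adjusted p = 0.0496) and without double-RNAi replicate 3 (adjusted p = 0.0437). For chic the log2 fold change was 0.03, with 1.96 SE spanning -0.02 to 0.08 (adjusted p = 0.398), and for Moe it was 0.00, spanning -0.05 to 0.05 (adjusted p = 0.985).

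Double-RNAi discs were then compared with NAT10-RNAi discs, which carry UAS-NAT10-RNAi without the RNAi against Xrp1. The NAT10 gene l(1)G0020 itself was 0.26 ± 0.042 higher on the log2 scale in double-RNAi discs (adjusted p = 7.11e-06, edgeR), and the part of this difference in the levels of the 9 genes was not tested. Actins, profilin, cofilin, myosin heavy chain and both capping protein genes were higher in double-RNAi discs, Moe was lower and sqh did not pass. That made 7 genes higher and 1 lower, where 28.4% of all genes tested were higher and 28.3% lower, and 8 genes with libraries that did not overlap, against 63.0% of all genes. The median log2 fold change was 0.23 for the 9 genes and -0.01 for all genes.

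By edgeR's test chic rose by 0.35 ± 0.025 on the log2 scale, zip by 0.35 ± 0.024 and Act42A by 0.33 ± 0.027 (adjusted p = 4.21e-12, 1.7e-12 and 8.95e-11). Smaller rises were those of cpb (0.25 ± 0.030), cpa (0.23 ± 0.032), Act5C (0.22 ± 0.024) and tsr (0.16 ± 0.025), with adjusted p of 7.34e-08, 1e-06, 1.34e-08 and 3.03e-06. Moe fell by 0.12 ± 0.024 (adjusted p = 0.000108). The log2 fold change of sqh was 0.01, with 1.96 SE spanning -0.05 to 0.06 (adjusted p = 0.872). All 3 comparisons share libraries in pairs, so their values are not independent of each other.

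Genes whose products work as partners were set against each other within each library on the FPKM scale. All of these ratios but that of the actins were chosen after their values were seen and are given without a test. The ratio of sqh to zip was 0.822, 0.856 and 0.854 in control, 1.10, 1.11 and 1.12 in NAT10-RNAi discs and 0.855, 0.866 and 0.908 in double-RNAi discs. NAT10-RNAi libraries lay apart from both other genotypes, which overlapped each other. Per length, the level of sqh was above that of zip in the NAT10-RNAi libraries and below it in the other libraries.

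The ratio of cpb to cpa held between 1.32 and 1.41 in all libraries. It was 1.34 ± 0.0263 in control, 1.37 ± 0.0334 in NAT10-RNAi discs and 1.39 ± 0.0355 in double-RNAi discs, and the 3 genotypes overlapped. The ratio of tsr to chic was 1.01 ± 0.0230 in control, 1.03 ± 0.0319 in NAT10-RNAi discs and 0.897 ± 0.0127 in double-RNAi discs. Double-RNAi discs lay below both other genotypes with no overlap, and the others overlapped. Act5C made up 81.3% ± 0.260 of the summed FPKM of Act5C and Act42A in control, 80.6% ± 0.160 in NAT10-RNAi discs and 79.9% ± 0.184 in double-RNAi discs, in 3 separate ranges. The exact two-sided permutation test gave p = 0.1 in each of the 3 comparisons (0.1 after Benjamini-Hochberg adjustment over them), the smallest p that 3 libraries against 3 can give.

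**Figure D3:**
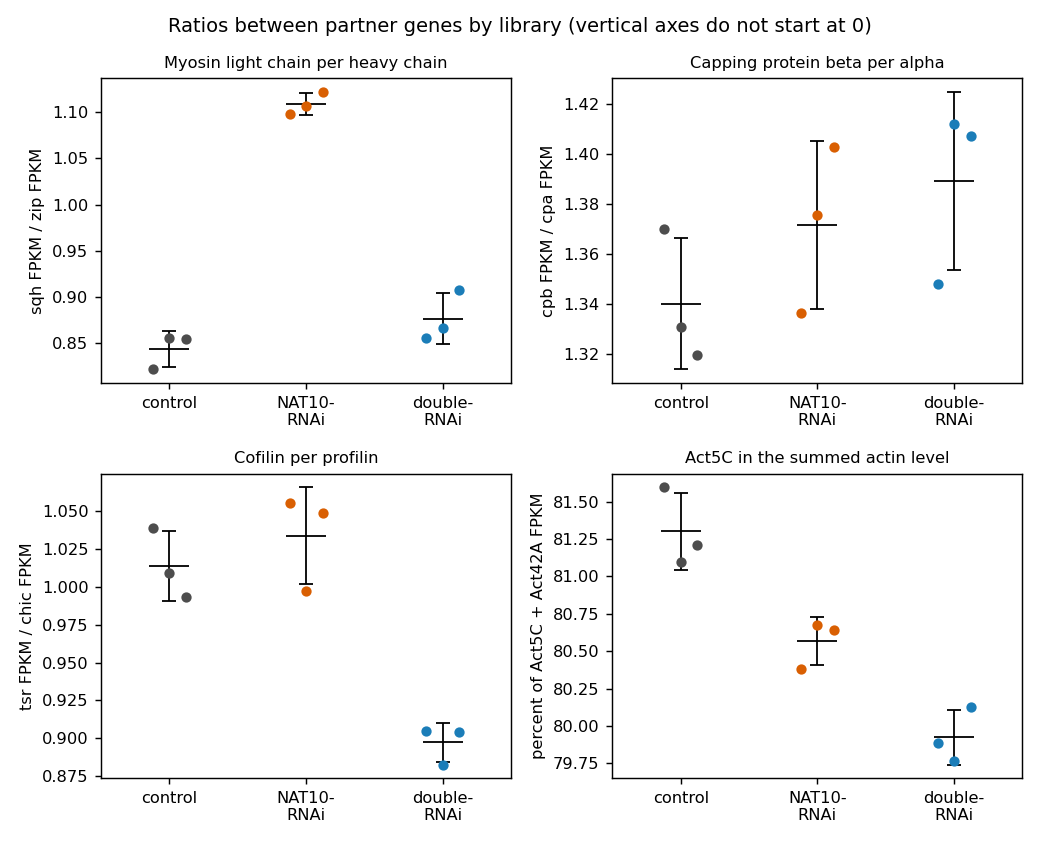
Ratios between partner genes in each library on the FPKM scale (vertical axes do not start at 0), with Act5C as a percentage of both actins in the last panel. Points are libraries and bars the mean with SD. The ratio of sqh to zip was above 1 in the 3 NAT10-RNAi libraries and below it elsewhere, while the ratio of cpb to cpa overlapped in all genotypes.

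The deposited counts and FPKM together give the transcript length by which each value was divided, and this length depends on the mix of transcripts assigned to a gene. For the genes with 1 annotated transcript it equalled the annotated length, 1626 bases for Act42A, 735 for tsr and 1918 for cpa. Act5C has 5 annotated transcripts of 1637 to 2863 bases. Its implied length was 2157 to 2178 bases in control, 2165 to 2183 in NAT10-RNAi discs and 2092 to 2117 in double-RNAi discs, so the double-RNAi libraries lay apart on the short side. Moe, with 13 annotated transcripts of 2027 to 3064 bases, was at 2730 to 2767, 2739 to 2753 and 2699 to 2720 bases, and chic, with 6 of 988 to 2091 bases, at 1151 to 1173, 1150 to 1157 and 1136 to 1146. These double-RNAi libraries too were shorter with no overlap, whereas the mean for zip was 6379 bases in control discs, 6381 in NAT10-RNAi discs and 6378 in double-RNAi discs. No test was run on these lengths, which were looked at after the values were known.

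Regulators of actin and myosin, muscle actins and the MRTF and serum response factor genes were followed in 9 lists of 107 genes in all, of which 99 were tested. With NAT10 RNAi alone 60 were lower and 16 higher than control (29.6% and 32.5% of all genes tested), with a median log2 fold change of -0.18. In double-RNAi discs 26 were lower and 16 higher (15.5% and 15.7% of all genes tested), with a median of -0.01, so the higher genes were near the background share. These counts were 23 lower and 23 higher under scaling by total counts, and 10 were higher without double-RNAi replicate 1. Between both RNAi genotypes 60 were higher and 13 lower in double-RNAi discs (28.4% and 28.3% of all genes tested), with a median of 0.14.

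Nucleators start new filaments. Of 23 tested nucleator genes 13 were lower and 3 higher in NAT10-RNAi discs (29.6% and 32.5% of all genes tested). In double-RNAi discs against control 8 were lower and 0 higher (15.5% and 15.7%), with 0 higher at an unadjusted p under 0.05 and 0 by DESeq2. Between both RNAi genotypes 12 were higher and 2 lower (28.4% and 28.3%). The Arp2/3 subunit gene Arp2 went from 197 ± 4.96 CPM in control to 153 ± 3.27 in NAT10-RNAi discs and 181 ± 5.79 in double-RNAi discs, and the filament elongation factor gene ena from 212 ± 10.2 to 145 ± 2.29 and 195 ± 10.1. The formin gene DAAM was at 94.0 ± 2.30, 39.5 ± 1.24 and 79.6 ± 3.14 CPM, a log2 fold change of -1.25 ± 0.047 in NAT10-RNAi discs (adjusted p = 3.48e-18, edgeR). The formin gene Frl was at 150 ± 4.69, 195 ± 7.60 and 135 ± 5.60. The WAVE complex gene Abi was at 112 ± 4.86, 89.7 ± 6.13 and 94.98 ± 1.63 and passed in double-RNAi discs (adjusted p = 0.000148, edgeR).

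Of 11 monomer binding and turnover genes 7 fell and 1 rose in NAT10-RNAi discs (29.6% and 32.5% of all genes tested). In double-RNAi discs 4 fell and 1 rose (15.5% and 15.7%), and between both RNAi genotypes 6 were higher and 1 lower (28.4% and 28.3%). The thymosin-type gene cib, whose product binds monomers, went from 806 ± 53.8 CPM in control to 522 ± 4.18 and 661 ± 11.9 in the 2 RNAi genotypes. The coronin-family gene pod1 was at 442 ± 13.0, 329 ± 6.604 and 415 ± 9.66 and twinfilin (twf) at 32.5 ± 3.23, 21.2 ± 1.14 and 27.9 ± 1.27. For cib both RNAi genotypes were below control, with log2 fold changes of -0.63 ± 0.035 and -0.29 ± 0.035 (adjusted p = 2.24e-12 and 1.64e-06, edgeR). The cofilin phosphatase gene ssh was at 116 ± 2.43, 98.8 ± 5.52 and 115.5 ± 1.154 CPM, flr (a cofilin cofactor) at 217 ± 11.2, 189 ± 5.80 and 198 ± 3.79, and gelsolin (Gel) at 64.0 ± 5.69, 69.3 ± 3.00 and 73.5 ± 4.18.

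Of 15 crosslinkers and bundlers 12 fell and 2 rose in NAT10-RNAi discs (29.6% and 32.5% of all genes tested). In double-RNAi discs 4 fell and 4 rose (15.5% and 15.7%), and between both RNAi genotypes 12 were higher and 2 lower (28.4% and 28.3%). The fascin gene sn, which bundles filaments in bristles, went from 418 ± 9.95 CPM to 233 ± 0.524 and 365 ± 7.72, and tropomyosin 1 (Tm1) from 902 ± 20.6 to 631 ± 3.74 and 763 ± 27.3. The heavy spectrin gene kst was at 785 ± 2.27, 593 ± 4.83 and 800.1 ± 15.9. The filamin gene cher, by contrast, was at 517 ± 9.21, 694 ± 12.6 and 544 ± 9.02, and alpha-actinin (Actn) at 224 ± 4.92, 211 ± 3.06 and 261 ± 4.95.

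Regulators of myosin II and of the GTPases upstream of it were tested for 22 genes. Of these, 12 were lower and 6 higher in NAT10-RNAi discs (29.6% and 32.5% of all genes tested). In double-RNAi discs 5 were lower and 5 higher (15.5% and 15.7%). Between both RNAi genotypes 11 were higher and 4 lower (28.4% and 28.3%). The kinase gene Rok, whose product phosphorylates the light chain, was at 206 ± 14.5 CPM in control, 190 ± 8.11 in NAT10-RNAi discs and 208 ± 1.55 in double-RNAi discs, and the myosin phosphatase subunit Mbs at 196 ± 4.28, 162 ± 1.88 and 194 ± 4.19. With NAT10 RNAi alone Rok fell by 0.12 ± 0.041 and Mbs by 0.27 ± 0.031 on the log2 scale (adjusted p = 0.0186 and 1.78e-08, edgeR), while the phosphatase catalytic gene flw did not pass (78.7 ± 6.56 and 74.0 ± 1.36 CPM, adjusted p = 0.0996). The cytokinesis gene tum, which encodes a Rac-type GTPase activating protein, was at 159 ± 8.10 CPM in control and rose to 219 ± 6.41 in NAT10-RNAi discs (adjusted p = 1.41e-11, edgeR). Cdc42 was at 356 ± 5.78, 310 ± 4.96 and 306 ± 5.98, and the GTPase activating protein gene cv-c was 1.24-fold higher in double-RNAi discs than in NAT10-RNAi discs.

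Of 10 unconventional myosin genes 5 fell and 2 rose in NAT10-RNAi discs (29.6% and 32.5% of all genes tested). In double-RNAi discs 1 fell and 3 rose (15.5% and 15.7%), and between both RNAi genotypes 6 were higher and 3 lower (28.4% and 28.3%). The myosin VI gene jar, whose motor walks towards the pointed end, stood at 528, 559 and 553 CPM in control, 307, 311 and 299 in NAT10-RNAi discs and 431, 453 and 428 in double-RNAi discs. Its 3 genotypes held separate ranges in the same order as those of zip. The myosin I gene Myo31DF, known for left-right asymmetry, went the opposite way, at 123 ± 3.13, 185 ± 4.80 and 142 ± 0.0343. The myosin VII gene ck was at 203 ± 4.28, 167 ± 2.30 and 196 ± 5.66, Myo10A at 212 ± 6.41, 173 ± 9.50 and 228 ± 8.55, and the atypical myosin gene d (dachs), a growth regulator of the wing, at 646 ± 9.83, 639 ± 17.2 and 688 ± 8.95.

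Of 8 genes of the cell cortex listed beside Moesin, 5 fell and 2 rose in NAT10-RNAi discs (29.6% and 32.5% of all genes tested). In double-RNAi discs 1 fell and 2 rose (15.5% and 15.7%), and between both RNAi genotypes 6 were higher and 1 lower (28.4% and 28.3%). The merlin gene Mer was at 66.7 ± 1.58, 76.3 ± 0.782 and 71.9 ± 0.350 CPM, and CG10939, listed in RefSeq under the synonym Sip1, at 406 ± 9.23, 476 ± 7.79 and 455 ± 6.24. Both thus stood highest in NAT10-RNAi discs, as Moe did, whereas cora (848 ± 16.7, 714 ± 13.3 and 840 ± 15.5), yrt (193 ± 7.49, 152 ± 0.720 and 197 ± 3.52) and cno (305 ± 4.09, 242 ± 5.10 and 283 ± 5.28) stood lowest there. Of 6 septin and anillin genes 3 were lower in NAT10-RNAi discs (29.6% of all genes tested). In double-RNAi discs 1 was lower (15.5%), and 3 were higher between both RNAi genotypes (28.4%). Septin genes pnut (424 ± 3.10, 348 ± 8.60 and 394 ± 14.01), Sep1 (241 ± 3.22, 201 ± 6.49 and 239 ± 3.61) and the scarce Sep4 (1.97 ± 0.849, 0.517 ± 0.114 and 2.01 ± 0.905) were the ones that fell in NAT10-RNAi discs.

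**Figure D4:**
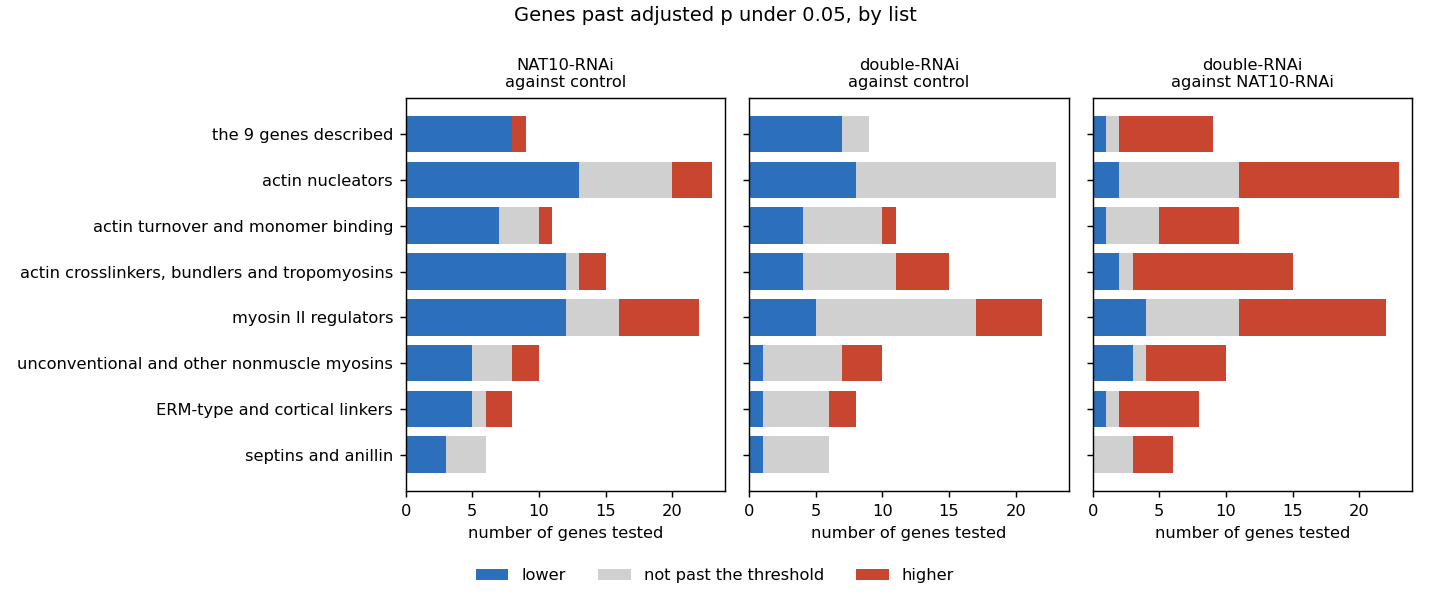
Number of genes tested (horizontal axis) that were lower, higher or not past an adjusted p under 0.05 in each comparison, for the 9 genes described and 7 lists of related genes. Among nucleators, for example, 13 were lower in NAT10-RNAi discs and 12 were higher in double-RNAi discs than in NAT10-RNAi discs. The matching shares of all genes tested were 29.6% and 28.4%.

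Serum response factor and its actin-sensing cofactor MRTF are known to drive actin genes in many animals. The fly serum response factor gene bs, also an intervein gene of the wing, stood at 160, 155 and 159 CPM in control, 55.3, 59.1 and 53.7 in NAT10-RNAi discs and 122, 127 and 135 in double-RNAi discs. Its order across genotypes was that of Act5C, with a larger difference in NAT10-RNAi discs (log2 -1.50 ± 0.044, adjusted p = 1.61e-20, edgeR). In double-RNAi discs the log2 fold change of bs was -0.30 ± 0.040 (adjusted p = 1.38e-06, edgeR), near the -0.27 ± 0.024 of Act5C. Mrtf was at 138 ± 1.40, 134 ± 5.45 and 157 ± 3.28, and did not pass in NAT10-RNAi discs (adjusted p = 0.252). In double-RNAi discs Mrtf rose by 0.19 ± 0.035 on the log2 scale against control and by 0.24 ± 0.035 against NAT10-RNAi discs (adjusted p = 0.000135 and 2.07e-06, edgeR). Whether either has a part in the levels of the 9 genes was not tested.

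Muscle actin genes, whose reads can resemble those of Act5C and Act42A, were scarce. Act57B was at 41.1 ± 0.579 CPM in control, 11.1 ± 1.44 in NAT10-RNAi discs and 25.8 ± 1.52 in double-RNAi discs, and Act87E at 14.8 ± 0.465, 5.11 ± 0.811 and 17.4 ± 0.732. With all 6 actin genes summed to 1 entry the log2 fold change was -0.49 in NAT10-RNAi discs, -0.24 in double-RNAi discs and 0.24 between them. This sum mostly follows the abundant Act5C, so it cannot show how reads divide between the genes.

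Markers of other cell types in or on the disc were followed too. In NAT10-RNAi discs 29.6% of all genes tested were lower than control and 32.5% higher. Adult muscle precursor markers, from cells that lie under the notum epithelium, were lower for 7 of 7 genes in NAT10-RNAi discs, with a summed level of 293 to 299 CPM in control, 216 to 221 in NAT10-RNAi discs and 283 to 301 in double-RNAi discs, and none was at 0. Hemocyte markers were lower in 6 of 11 cases (154 to 159, 125 to 130 and 145 to 152 CPM, or 66.4 to 70.3, 52.0 to 55.3 and 53.6 to 54.7 without ush, the largest of them), and muscle markers in 10 of 13, with 2 higher (194 to 207, 231 to 238 and 201 to 219 CPM, or 98.6 to 103, 51.3 to 56.9 and 65.9 to 69.7 without sls, the largest of them). Fat body markers were higher in 6 of 7 (14.7 to 17.0, 65.3 to 73.4 and 1330 to 1377 CPM). Trachea markers, several of which are also cuticle genes of epithelia, were higher in 4 and lower in 2 of 6 (1280 to 1290, 1562 to 1623 and 1363 to 1386 CPM), with rib at 0 in all control and NAT10-RNAi libraries and the muscle gene TpnC47D at 0 in all double-RNAi libraries. Disc epithelium markers were lower in 13 and higher in 3 of 16, at 7423 to 7538 CPM in NAT10-RNAi discs and 8238 to 8357 in double-RNAi discs. The part of these cells in the levels of the 9 genes was not tested. In double-RNAi discs against control 9 of 13 muscle markers were lower and 1 higher, with a median log2 fold change of -0.88, and 7 of 7 fat body markers were higher. Of 16 disc epithelium markers 6 were lower and 1 higher, and of 11 hemocyte markers 3 were lower and 2 higher. Of 7 adult muscle precursor markers 1 was lower, and of 6 trachea markers 2 were higher. Over all genes tested 15.5% were lower and 15.7% higher in this comparison. The higher hemocyte markers and the lower adult muscle precursor marker were near these shares.

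Across the 9 libraries, which fall into the 3 genotypes, and 6521 genes of at least 10 CPM, the genes outside the 9 whose log2 CPM was most like that of Act5C were Kap-alpha3, Gli and TfIIS (Pearson's r = 0.996, 0.995 and 0.995). For zip they were Dp1, AdamTS-A and Bre1 (r = 0.999 each), and AdamTS-A, a secreted metalloprotease gene, had a mean of 137 CPM in control discs, 42.1 in NAT10-RNAi discs and 95.03 in double-RNAi discs. Within the 9 genes, cpa and Act5C were the most alike (r = 0.992) and chic and Moe the most opposed (r = -0.951), while Moe was negatively correlated with all 8 others (r = -0.951 to -0.452) and sqh had the lowest r among the remaining pairs (0.447, with chic). These are descriptions of libraries that share their genotype, with no test.

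In the authors' deposited table for NAT10-RNAi discs, 5 of the 9 genes had an FDR under 0.05 (zip, Act5C, cpa, Act42A and cpb), with deposited log2 fold changes from -0.51 for zip to -0.42 for Act42A, and in the authors' deposited table for double-RNAi discs 0 of 9 did, against 7 called here by edgeR. For cpa in double-RNAi discs the authors' deposited table gave a log2 fold change of -0.22 beside a p-value of 0.996. Its counts summed over libraries, without regard to depth, were 9521 in control and 9517 in double-RNAi discs. Among the 53 genes with a mean control count of at least 1000 and a p-value above 0.9 in the authors' deposited table for double-RNAi discs, the log2 ratio of such raw count sums lay between -0.0136 and 0.0148, while after scaling by total counts its median was -0.22. For NAT10-RNAi discs it was between -0.0142 and 0.0150 for 126 such genes, with a scaled median of -0.08. These genes, picked by a deposited p-value above 0.9, thus had nearly equal raw counts rather than equal depth-scaled levels. The double-RNAi libraries summed to 0.22 more on the log2 scale than the control libraries. Which test gave the deposited p-values is not given in the labels, and why the calls differ was not tested.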

How the data were processed

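Estimated counts per gene and library were deposited by the authors without normalisation, and FPKM and the p-value, FDR and log2 fold change columns of the comparison tables were deposited by the authors as well. Per the submitters' processing notes, RSEM, StringTie 1.3.1, HISAT2 2.1.0 and fastp 0.18.0 were used, and the step each tool served and the genome build are not given in the sources used here. Counts were rounded (8.19% to 9.11% of values in a library were not whole) and fitted in edgeR 4.0.16 (R 4.3.3) over all 9 libraries with TMM factors, filterByExpr and the robust quasi-likelihood test, adjusted by Benjamini-Hochberg over 8487 genes. The common biological coefficient of variation was 3.61%. Each sample held 14183856 to 19949448 counts. Groups followed the titles, and 0 count columns belonged to other series. zip was matched to the annotation by symbol, since its identifier there differs. The fit was tested on simulated data. SE is the size of a log2 fold change divided by the root of its F statistic.

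The members and lists were chosen with earlier results of these data known. Named besides the 9 genes were 6 regulators (some results under this rule are not reported here), the targeted and driver genes, up to 3 called genes per list and comparison with the smallest adjusted p, and for Act5C and zip the 3 genes of closest profile. Alternatives were DESeq2 1.42.0, other size factors, total counts, a fit of just the 2 genotypes in question, no filter (11885 genes), a minimum of 5 CPM in 3 libraries (7191 genes), a replicate block, each library left out, a threshold of 0.01, and summed actins. Tables and figures used Python 3.11.15 with scipy 1.17.1, matplotlib 3.10.9, numpy 2.4.6 and pandas 2.3.3. No sequences are printed here.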

Additional observations from a re-analysis of the deposited data

How the results depend on the processing

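Counts of the 9 genes past the threshold stayed within 1.5 times the reported ones in 102 of 102 alternative values, and 432 of 438 alternative fold changes of these genes kept their direction and side of the threshold. Besides Act42A without control replicate 2, the exceptions were those of Moe in double-RNAi discs against control, which was not called: -0.0035 with relative log expression size factors, -0.0034 with DESeq2, -0.0123 without a filter, and -0.0064 to 0.0048 with single libraries left out (-0.0064 without control replicate 1 and -0.0002 without double-RNAi replicate 2). The cause was not tested. Of the listed regulators 10 rather than 16 were higher in double-RNAi discs than in control at an adjusted p under 0.01, and 10 to 17 with single libraries left out. Counts in place of FPKM gave Act5C a share of 85.3% of both actins in control, 84.7% in NAT10-RNAi discs and 83.8% in double-RNAi discs. With replicate numbers as a block, 8 genes were lower in NAT10-RNAi discs and 7 in double-RNAi discs, as without it. Deviations of same-numbered libraries from their genotype means correlated at -0.028 to 0.077. Whether these numbers mark a shared day or batch is not given in the labels, and the correlations cannot decide it. Depth ran from 14183856 to 19949448 counts a library, and precision for scarce genes is limited by it.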
